A study of Mus musculus with 12 samples.

Results

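Sorcin, encoded by Sri, belongs to the penta-EF-hand family of calcium-binding proteins, and its transcript was measured here beside those of Pdcd6, Gca, Pef1, Capn1, Capn2 and Capns1 in islets of mice that overexpress it. The members were the 17 probes, of 45281 on the array, whose gene symbol in the intensity table or updated symbol in the authors' deposited table is one of these 7 genes, among 30979 gene names. Of the 17, 13 probes of 6 genes were detected on at least 6 of the 12 arrays and entered the comparison, out of 18315 probes in all. Sri has 4 probes, Capn2 has 5, Gca has 3, Capn1 has 2, and Pdcd6, Pef1 and Capns1 have 1 each.

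Penta-EF-hand proteins carry a tandem run of EF-hand motifs, not all of which bind calcium, and pair through the last of them, the fifth, as homodimers or heterodimers. Binding of calcium exposes hydrophobic surfaces, and many members then move to membranes. Sorcin is known for its action on ryanodine receptors and on calcium handling at the endoplasmic reticulum (ER), Pdcd6 (ALG-2) and its partner Pef1 (peflin) for vesicle budding at ER exit sites, and Gca (grancalcin) as a protein of neutrophils and macrophages. Capn1 and Capn2 are the catalytic subunits of the classical calcium-activated cysteine proteases, and Capns1 is the small regulatory subunit that both require.

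The 12 bead arrays each read the islets of Langerhans of 1 male C57BL/6 mouse aged 8 weeks, and 6 of the mice were SRI-tg10 and 6 their littermate controls. SRI-tg10 mice carried 10 copies of an SRI cDNA transgene under a tetracycline-inducible promoter, together with luciferase, and the rat insulin promoter drove the transactivator, so that induction was directed to beta cells. By the design text, mice of both groups ate a 60% fat diet and drank doxycycline (500 mg/L) over the last 4 weeks, so the comparison was made wholly on high fat diet. The species of the SRI cDNA, and which of the transgenes the littermate controls carried, do not appear in these sources. The mice are numbered singly in the labels, and the titles hold a letter, A or B, of unstated meaning that covers 3 mice of each group.

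Each array detected 35.9% to 44.4% of its probes, with the fewest on control replicate 5. The source names speak of beta cells and the tissue label of whole islets. All 8 beta cell markers and all 9 acinar markers were measured, as were 11 of 13 leukocyte markers, of which Ptprc and S100a9 were detected on too few arrays. Over the whole leukocyte list, 10 of the 11 differences were positive with a median of 0.53 on the log2 scale and none past the limma threshold, and the summed linear level ran from 4602 to 29948 in controls and from 6387 to 32892 in SRI-tg10 islets. A processed value table in the series heads its columns differently from the intensity table, with high Sri under 3 control headings, and no level or difference was taken from it.

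Sri was far more abundant in SRI-tg10 islets on 3 of its 4 probes. On probe ILMN_2600537 the normalized log2 level had a lowest, median and highest value of 9.60, 9.86 and 10.09 in the 6 controls and 12.72, 14.88 and 14.96 in the 6 SRI-tg10 mice. On ILMN_3120014 the same 3 values were 9.73, 9.95 and 10.15 in controls and 12.67, 14.34 and 14.43 in SRI-tg10 mice. On ILMN_3044633 they were 7.41, 7.67 and 8.05 against 10.10, 13.45 and 13.59. On each of the 3 probes every SRI-tg10 array lay above every control array, and the gap between the groups was wider than the spread of the controls.

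The log2 differences were 4.67 ± 0.33 (SE, n = 6 per group) on ILMN_2600537, 4.12 ± 0.26 on ILMN_3120014 and 5.21 ± 0.50 on ILMN_3044633. They correspond to 25.5-fold (95% interval 15.5 to 41.7), 17.4-fold (11.8 to 25.7) and 37.0-fold (17.6 to 77.6). All passed limma with Benjamini-Hochberg adjustment over all 18315 probes, with adjusted p-values of 1.53e-05, 7.43e-06 and 0.000424. In the same comparison 4 probes passed, 0.0218% of those tested, of which 3 were higher (0.0164%) and 1 lower (0.00546%) in SRI-tg10 islets, and the 3 higher ones were these Sri probes. Groups that did not overlap, as on these 3 probes, were found for 0.169% of tested probes. An exact permutation test (two-sided), which enumerated every choice of 6 of the 12 arrays, gave 0.00216 for each of the 3 probes, which is the smallest p that 6 against 6 allows. The 8 beta cell markers had log2 differences from -0.45 to 0.35, 4 positive and 4 negative, with a median of -0.01 and none past the limma threshold. Their summed linear level ran from 92503 to 106502 in controls and, lower at both ends, from 84247 to 101383 in SRI-tg10 islets. A change in the share of a cell type and a change in RNA per cell cannot be told apart in islet RNA.

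**Figure D1:**
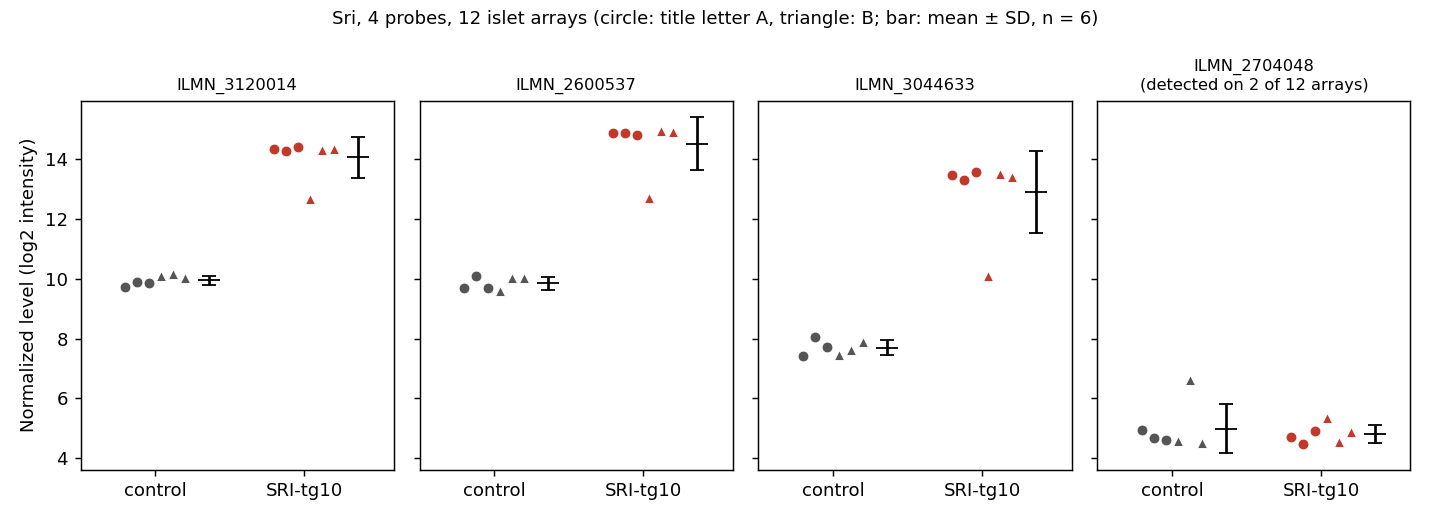
Normalized log2 level of Sri on each of its 4 probes (panels) for 6 control arrays in grey and 6 SRI-tg10 arrays in red; circles and triangles are title letters A and B, and bars are the mean ± SD. On the first 3 panels all SRI-tg10 arrays lie above all controls with replicate 4 lowest, at 12.67, 12.72 and 10.10, and on the last panel, a probe detected on 2 of 12 arrays, the groups overlap.

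The fourth Sri probe, ILMN_2704048, was at the level of the negative control beads. Its intensity ran from 116 to 165 over the 12 arrays, and it was detected on 1 control and 1 SRI-tg10 array. With no filter on detection its log2 difference was -0.18 ± 0.32 (SE; limma adjusted p = 0.98), and its exact two-sided permutation p was 0.79. The rise on the other 3 probes was thus not seen on this one in the same 6 mice. Why the probes differ was not tested, and their sequences were not used here.

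SRI-tg10 replicate 4 had less Sri than its group. On ILMN_2600537 it stood at 12.72, below a range of 14.81 to 14.96 for the remaining 5. The gap to the mean of those 5 was -2.17 on ILMN_2600537, -1.68 on ILMN_3120014 and -3.37 on ILMN_3044633, against an SD among the 5 of 0.05, 0.06 and 0.10. Replicate 4 still exceeded the highest control by 2.63, 2.52 and 2.05 log2 units. Its own rise over the control mean was 7.28-fold, 6.58-fold and 5.29-fold on the 3 probes.

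The rises on the 3 probes lay closer together in replicate 4, at 5.29-fold to 7.28-fold, than in the other 5 arrays, and their order differed. In those 5, Sri stood 20.2-fold to 22.3-fold above the control mean on ILMN_3120014, 31.1-fold to 34.4-fold on ILMN_2600537 and 49.3-fold to 59.5-fold on ILMN_3044633. The probe with the lowest control intensity of these, ILMN_3044633 at a median of 341, gave the highest folds in those 5 arrays and the lowest in replicate 4. Its intensity reached 12454 in SRI-tg10 islets against 34841 for ILMN_2600537. By intensity ILMN_2600537 ranked 11 to 28 among the 45281 probes in the 5 arrays, 396 in replicate 4 and 2815 to 3764 in controls. The highest value of any probe on the normalized scale was 15.17, and the part of compression near the top of the scale in these unequal folds was not tested.

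**Figure D2:**
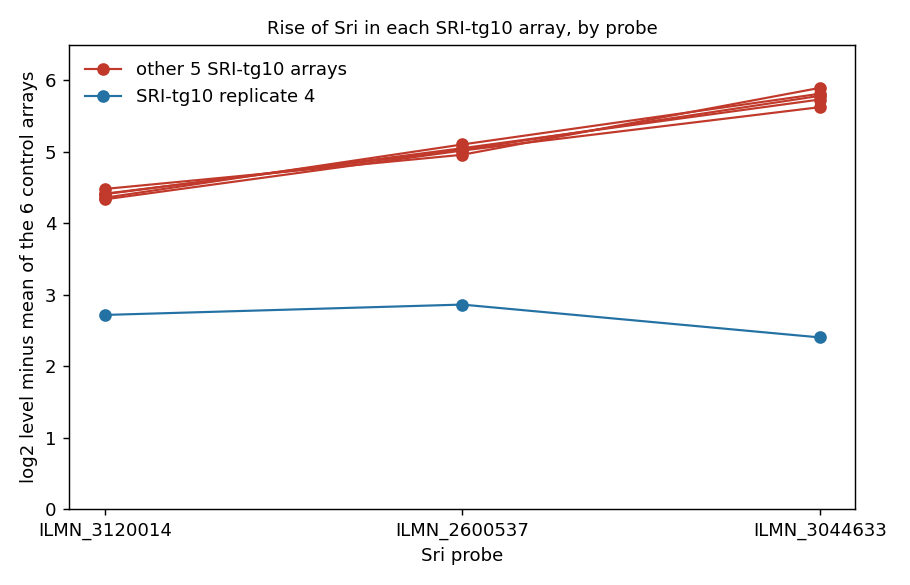
Log2 level of Sri minus the mean of the 6 controls on its 3 detected probes (horizontal axis), with a line for each SRI-tg10 array. Replicate 4, in blue, lies between 2.40 and 2.86 on all probes, and the other 5 arrays, in red, climb from 4.34 to 4.48 on ILMN_3120014 to 5.62 to 5.89 on ILMN_3044633.

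Without SRI-tg10 replicate 4 the differences were 5.03 ± 0.13 (SE) on ILMN_2600537, 4.40 ± 0.11 on ILMN_3120014 and 5.77 ± 0.14 on ILMN_3044633, each with a limma adjusted p of 8.65e-11. The authors' deposited table gives log2 fold changes of 4.98, 4.35 and 5.55 for these probes, between the values with that array and those without it. For ILMN_2704048 the authors' deposited table lists -0.07.

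Within title letter A, with 3 mice per group, Sri differed by 5.04 ± 0.16 (SE), 4.54 ± 0.14 and 5.74 ± 0.20 on ILMN_2600537, ILMN_3120014 and ILMN_3044633, with limma adjusted p-values of 8.7e-05, 8.7e-05 and 8.9e-05. In letter B, the letter of replicate 4, the differences were 4.30 ± 0.57, 3.70 ± 0.44 and 4.68 ± 0.84, with limma adjusted p-values of 0.883, 0.8 and 0.884. In both letters every SRI-tg10 array lay above every control. The test of the difference between the letters gave -0.73 ± 0.66 on ILMN_2600537, B minus A, with a limma adjusted p of 1.0 for all 13 member probes after rounding. In controls ILMN_3120014 ran from 9.73 to 9.88 in letter A and from 10.01 to 10.15 in letter B. The letters thus did not overlap there, whereas on ILMN_2600537 they did. Each letter holds only 3 controls, and the share of all probes on which the letters separate was not counted. No effect of the letter is therefore read from this.

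None of the other member genes passed the threshold. Over their 10 measured probes, 5 log2 differences were positive and 5 negative, where 50.7% of all tested probes were negative and 49.3% positive, with a median of -0.01 against 0.00 over all 18315 probes. They ran from -0.46 to 0.14, the limma adjusted p-values lay between 0.922 and 0.991, and on no probe were the groups apart. One of the 10 had an unadjusted limma p under 0.05, where 4.26% of all tested probes did.

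Gca, a calcium sensor of phagocytes, held that probe. On ILMN_2688888 the lowest, median and highest log2 levels were 7.79, 8.59 and 8.78 in controls and 7.41, 8.19 and 8.36 in SRI-tg10 islets. The difference was -0.46 ± 0.20 (SE, n = 6 per group), or 0.728-fold, with an unadjusted limma p of 0.0406 and an adjusted p of 0.922. Levels lay under the mean of the controls in all 6 SRI-tg10 arrays, and the lowest control, replicate 2, lay below 4 of them. Without control replicate 2 the difference was -0.60 and without SRI-tg10 replicate 3, the lowest array, it was -0.33. On the other measured Gca probe, ILMN_2733482, the 3 values were 6.44, 6.81 and 7.52 against 5.94, 6.57 and 6.94, a difference of -0.29 ± 0.20 (SE; limma adjusted p = 0.922). It was -0.15 without control replicate 5, the highest array, -0.17 without SRI-tg10 replicate 5, the lowest, and -0.14 with no background correction. Within letter A the probes gave -0.36 ± 0.34 and 0.05 ± 0.21, and within letter B -0.56 ± 0.21 and -0.63 ± 0.30. The third Gca probe, ILMN_1239940, was detected on none of the arrays. Beside these Gca values, 10 of 11 leukocyte marker differences were positive, and the part of leukocytes in the Gca values was not tested.

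Pdcd6, the calcium-dependent adaptor of ER exit sites and of membrane repair, could not be measured. Its 1 probe, ILMN_2681832, had intensities from 116 to 157 and was detected on none of the 12 arrays, with a lowest detection p of 0.257. Its normalized log2 level was 4.46 to 4.68 in SRI-tg10 islets and 4.52 to 4.82 in controls, at the floor of the scale.

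Pef1, the heterodimer partner of Pdcd6, was detected on all 12 arrays and its levels overlapped closely between the groups. On ILMN_2643723 the lowest, median and highest log2 levels were 9.31, 9.55 and 9.57 in controls and 9.19, 9.55 and 9.71 in SRI-tg10 islets. The difference was 0.01 ± 0.11 (SE), with a 95% interval from -0.23 to 0.24 (limma adjusted p = 0.991). As a fold the interval is 0.852 to 1.18.

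Capn1, the catalytic subunit of mu-calpain, had 1 measured probe, ILMN_2981550, with 7.45, 7.63 and 8.09 in controls and 7.41, 7.80 and 8.12 in SRI-tg10 islets. The log2 difference of 0.09 ± 0.15 (SE) had an interval from -0.22 to 0.41 (limma adjusted p = 0.946). Its other probe, ILMN_2767401, was detected on none of the arrays.

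Capn2, the catalytic subunit of m-calpain, was read by 5 measured probes. The 3 brighter ones, detected on all 12 arrays, gave log2 differences of -0.04 ± 0.13 (SE; ILMN_2683586), 0.02 ± 0.12 (ILMN_2620030) and -0.03 ± 0.14 (ILMN_1219583). Their control levels ran from 7.71 to 8.19, from 7.78 to 8.18 and from 7.33 to 7.83, and the SRI-tg10 levels from 7.73 to 8.24, from 7.85 to 8.28 and from 7.19 to 7.79. The groups thus covered nearly the same span on each of these probes. The 2 other probes were dim. ILMN_2584397, detected on 11 arrays, ran from 5.57 to 6.88 in controls and from 5.48 to 6.84 in SRI-tg10 islets, a difference of 0.03 ± 0.28. ILMN_1235077, detected on 9 arrays, ran from 5.25 to 5.68 and from 5.14 to 6.27, a difference of 0.14 ± 0.17, which was 0.02 without SRI-tg10 replicate 1. The limma adjusted p of the 5 probes lay between 0.928 and 0.985.

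Capns1, the regulatory subunit shared by both calpains, had lowest, median and highest log2 levels of 10.04, 10.33 and 10.66 in controls and of 10.10, 10.22 and 10.65 in SRI-tg10 islets on ILMN_2772248. The difference was -0.02 ± 0.14 (SE), with an interval from -0.33 to 0.29 (limma adjusted p = 0.981). In controls its mean was 10.53 in letter A and 10.13 in letter B, with no overlap between the letters. The letters overlapped in SRI-tg10 islets, where replicate 1 of letter A stood at 10.14 and letter B ran from 10.10 to 10.29. How many of all probes separate the letters was not counted, so no effect of the letter is read from this separation either. Within the letters the differences between groups were -0.08 ± 0.18 and 0.04 ± 0.17.

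**Figure D3:**
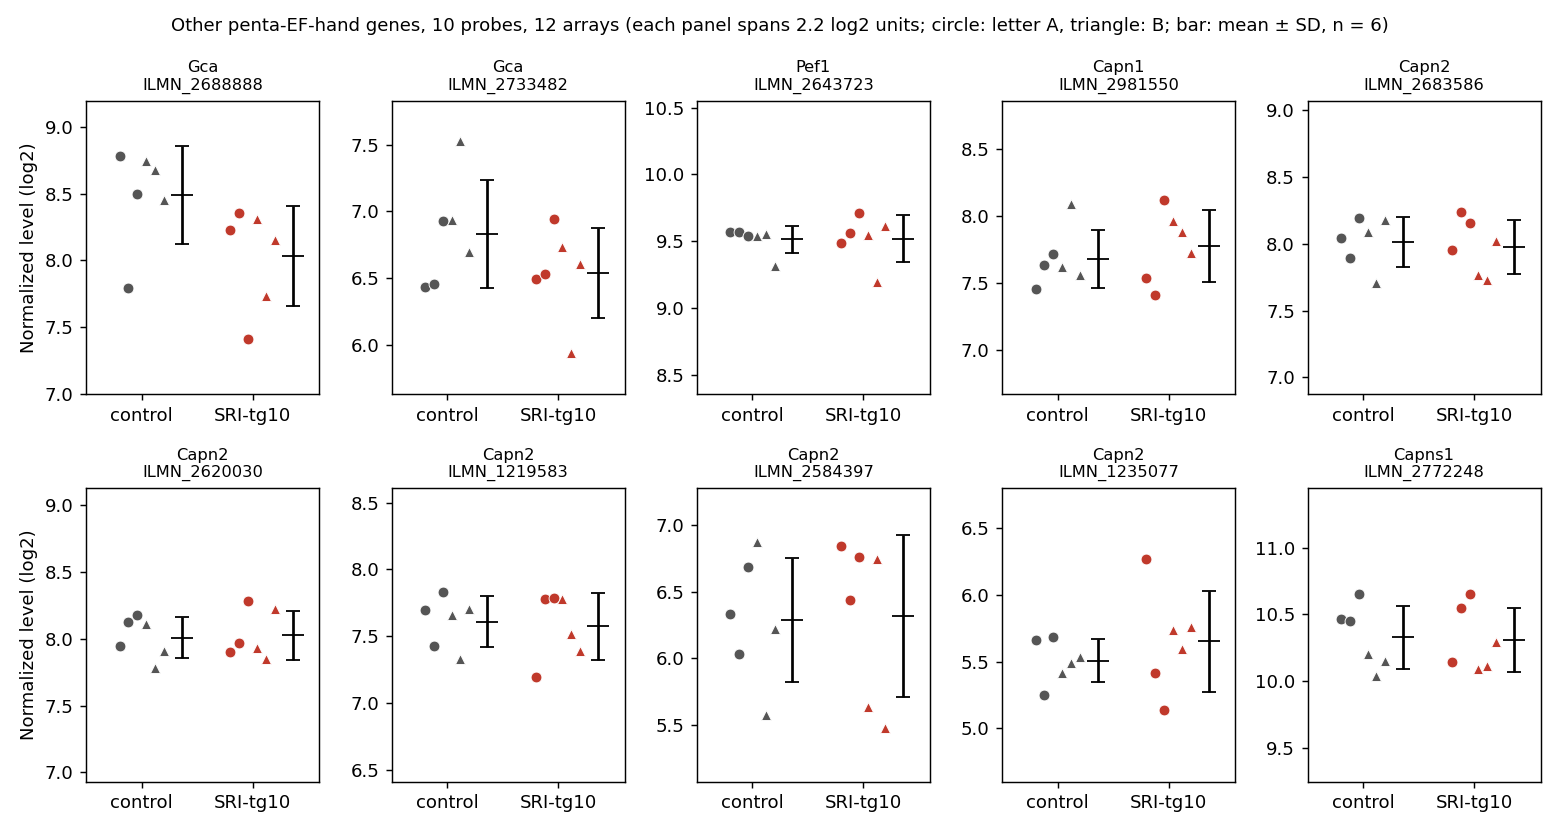
Normalized log2 levels of the 10 measured probes of Gca, Pef1, Capn1, Capn2 and Capns1 in 6 control (grey) and 6 SRI-tg10 (red) arrays, with circles and triangles for title letters A and B and bars for the mean ± SD. The groups overlap in every panel, and the largest shift is that of Gca on ILMN_2688888, from 8.49 to 8.03.

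The authors' deposited table lists the 10 measured probes of these genes too. Its log2 fold changes for them run from -0.40 for Gca on ILMN_2688888 to 0.13 for Capn2 on ILMN_1235077, and 8 of the 10 are negative. The share of negative values over all its probes was not counted, so no fall of the family is read from this. The smallest adjusted p among them in the authors' deposited table is 0.828.

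Of 13 other calpain genes, the inhibitor calpastatin included, 5 were measured and none passed the threshold. In the 8 others, Capn3, Capn6, Capn8, Capn11, Capn12, Capn13, Capns2 and Cast, no probe was detected on 6 arrays. Of the 5, 4 differences were positive and 1 negative, with a median of 0.04 (log2). Capn5 differed by 0.30 ± 0.17 (SE), Capn9 by 0.21 ± 0.14 and Capn7 by -0.15 ± 0.18. Capn15 (listed as Solh) differed by 0.04 ± 0.24 and Capn10, a gene linked to type 2 diabetes in human studies, by 0.02 ± 0.13. The limma adjusted p was between 0.922 and 0.981 for these. The difference of Capn7 was -0.015 without SRI-tg10 replicate 3, that of Capn5 was 0.18 without control replicate 5 and that of Capn9 was 0.11 without control replicate 6. Capn9 lay above the control mean in 6 of 6 SRI-tg10 arrays, at 6.66 to 6.98 against 6.13 to 7.05 in controls, so the groups overlapped.

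A list of 20 partner genes held those whose products bind penta-EF-hand proteins or are calcium channels and pumps regulated by sorcin. Atf6 was listed with them. Of the 20, 16 were measured and none passed, with 9 differences positive, 7 negative and a median of 0.06. Ryr2, the ryanodine receptor of the heart and sorcin's best known target, Ryr3, Cacna1c and Plscr3 were not detected on 6 arrays. Anxa11, an annexin known to bind Pdcd6 and sorcin, had the smallest p. Its log2 level ran from 9.95 to 10.39 in controls and from 10.39 to 10.73 in SRI-tg10 islets, which touch without separating, a difference of 0.43 ± 0.11 (SE; limma adjusted p = 0.922). Anxa7, another annexin known to bind sorcin, differed by -0.36 ± 0.20, the ER stress sensor Atf6, detected on 3 of 6 SRI-tg10 arrays, by -0.24 ± 0.14, and the ESCRT components Vps37b and Tsg101 by 0.22 ± 0.17 and -0.16 ± 0.13, all with a limma adjusted p of 0.922. Atp2a2, the ER calcium pump, stood at 12.30 to 12.80 in controls and at 12.45 to 13.17 in SRI-tg10 islets. Its difference was 0.11 ± 0.14 (SE; limma adjusted p = 0.936).

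**Figure D4:**
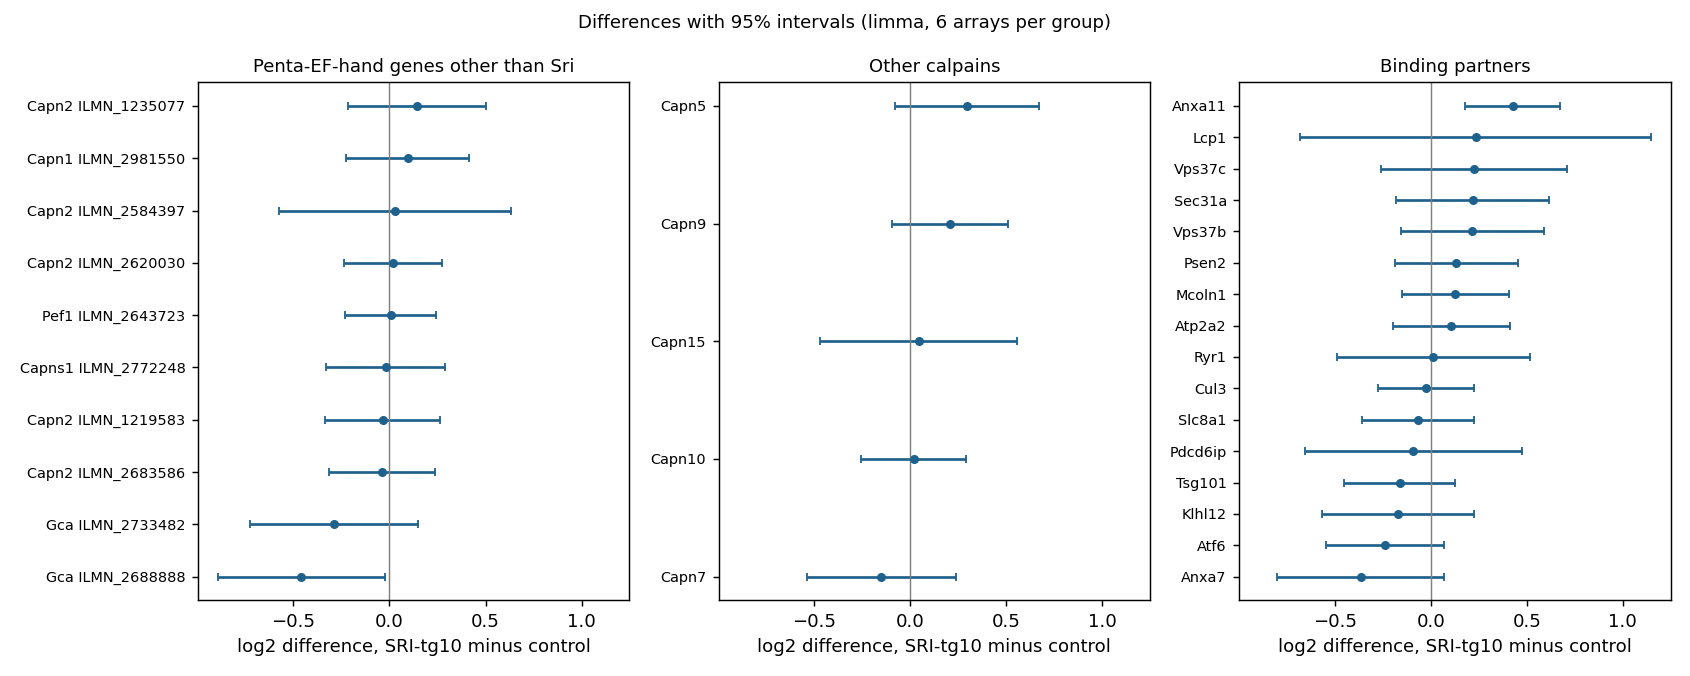
Log2 difference, SRI-tg10 minus control, with its 95% interval, from limma with 6 arrays per group. Panels show the 10 measured probes of members other than Sri (left), 5 other calpains (middle) and 16 listed partner genes, Atf6 included (right). The intervals of Gca on ILMN_2688888 and of Anxa11 leave out 0 before adjustment, and none passed after adjustment over all probes.

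In the 6 controls Sri on ILMN_2600537 spanned 9.60 to 10.09. Over these 6 arrays, among 7818 named probes with an above-median spread, the highest Pearson correlations with Sri were those of the kinase gene Rps6ka1 (r = 0.99, Spearman's rho = 0.94), of Phf11d (0.97 and 0.94) and of the class I histocompatibility gene H2-Q6 (0.97 and 0.89). The lowest were those of the scaffold gene Grip1 (r = -0.99, rho = -0.94), of Mtmr11 (-0.99 and -0.94) and of the growth factor Tgfb3 (-0.98 and -1.0). With the 2 arrays farthest from the median of Sri left out, r was 0.96 to 1.0 for the first 3 genes and -0.99 to -0.97 for the last 3. Sri in the remaining controls stood at 9.68, 9.69, 10.02 and 10.04. That r thus compares close pairs of arrays, for genes picked on the same arrays, and is no check of the likeness. All these correlations are descriptions of 6 arrays or fewer, picked from 7818 values, with no test. The 2 controls with the largest summed leukocyte level, replicates 2 and 6 at 20758 and 29948, had Sri at 10.09 and 10.02, whereas replicate 5, with Sri at 10.04, had 4624, and the part of leukocytes in these likenesses was not tested. Between the groups the 6 genes had differences from -0.40 to 0.29 and limma adjusted p-values from 0.922 to 0.976. The likeness was picked in controls, and the SRI-tg10 mice carry an SRI transgene, so these differences are no check of it either.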

How the data were processed

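Biotinylated cRNA from islet RNA was read on Illumina bead arrays, as the labels' protocols state. The submitters' processing notes name GenomeStudio. The deposited intensity table holds the mean bead intensity per probe and array on a linear scale. It was neither background-subtracted nor normalized between arrays, from its values. A detection p-value stands beside each intensity, per the file headers. For 26560 probes the authors also deposited log2 fold changes, average log2 levels, a moderated t score and adjusted p-values, per the file headers. It states no model or direction. Of the 535 shared probes with a difference over 0.5 here, 521 had the sign of SRI-tg10 minus control. A deposited value table on the log2 scale was compared with the intensities and not used, because only 2 of its 12 columns followed the array of their heading.

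Background correction, quantile normalization and the log2 step used neqc (limma 3.58.1, R 4.3.3) with an offset of 16. A probe entered the fit where its detection p was below 0.05 on 6 or more of the 12 arrays. Groups were compared with lmFit and eBayes, SRI-tg10 minus control, with Benjamini-Hochberg adjustment over 18315 probes and a threshold of 0.05. Sri was also tested by exact permutation. The fit was tested on simulated data. List genes were represented by their kept probe with the highest mean, older names were matched through a RefSeq table, and no coordinates are printed, as the sources used here name no build. The number of arrays limits the precision. No 2 arrays were identical. Named genes were all members, the 5 list genes with the smallest p in each list and the 3 most and least alike to Sri over controls. Atp2a2 was added after its values were seen. The members and lists were chosen with earlier results of these data known. Alternatives covered the filter, offset, normalization, background correction, array weights, title letter and each array left out.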

Additional observations from a re-analysis of the deposited data

Results flagged for a closer look

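Of 34 sets of 6 arrays, 1 for each member probe and group, 6 had an array far from the others by Dixon's criterion, which chance alone meets in about 5% of sets. Of the 6, 3 were SRI-tg10 replicate 4 on Sri, at 12.72 on ILMN_2600537, 12.67 on ILMN_3120014 and 10.1 on ILMN_3044633, where the nearest arrays stood at 14.81, 14.29 and 13.32. The fourth was control replicate 5 on the Sri probe ILMN_2704048, detected on 2 of 12 arrays, at 6.62 with the next control at 4.96, although the other Sri probes placed this mouse among the controls. The others were control replicate 6 on Pef1, at 9.31 below 9.54, and control replicate 2 on Gca (ILMN_2688888), at 7.79 below 8.45. The causes were not tested.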

How the results depend on the processing

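The 3 Sri probes passed in each of 7 other settings and with any 1 of the 12 arrays left out. No other member probe, other calpain or listed partner gene passed in any of these fits. Over the settings the Sri difference ran from 4.53 to 4.88 on ILMN_2600537, from 4.00 to 4.25 on ILMN_3120014 and from 4.60 to 5.46 on ILMN_3044633, lowest without background correction and highest with array weights. On leaving out 1 array it ran from 4.58 to 5.03, from 4.05 to 4.40 and from 5.07 to 5.77. Differences close to 0 changed sign. With median scaling in place of quantiles, Capn2 (ILMN_2584397) was -0.045, Pef1 -0.017 and Solh, the listed name of Capn15, -0.024, and with array weights they were -0.11, -0.00066 and -0.065, with Capn2 (ILMN_2620030) at -0.014. On leaving out 1 array Capn10 ran from -0.046 to 0.074, Capns1 from -0.089 to 0.045, Pef1 from -0.034 to 0.072, Solh from -0.15 to 0.16 and Capn2 from -0.0899 to 0.042 (ILMN_1219583), -0.11 to 0.20 (ILMN_2584397), -0.034 to 0.053 (ILMN_2620030) and -0.10 to 0.011 (ILMN_2683586). With 1 array left out, Capn1 ran from 0.02 to 0.18, Capn2 (ILMN_1235077) from 0.02 to 0.25, Capn7 from -0.23 to -0.015, Capn5 from 0.18 to 0.41, Capn9 from 0.11 to 0.30, Gca (ILMN_2733482) from -0.37 to -0.15, Vps37b from 0.13 to 0.32 and Tsg101 from -0.23 to -0.09. Atf6 was -0.07 and Anxa7 -0.17 with no background correction. The setting with the value table was not run, because its column headings disagree with the intensity table. No paired analysis was possible because the labels number the mice singly and give the groups no shared numbers. Pdcd6 and 3 further probes were too dim to read.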

Other observations

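The series' processed value table carries column headings that disagree with its intensity table. Deviations from the mean of each probe, over 6658 probes with an intensity above 256 on every array, matched each of its 12 columns to 1 array of the intensity table with a correlation of at least 0.982. That array was the one in the heading for 2 columns, and it belonged to the other group for 6. Under its own headings, Sri on ILMN_2600537 reads 14.95, 15.02 and 14.65 in the columns of control replicates 4, 5 and 6, and 10.08, 9.64 and 10.06 in those of SRI-tg10 replicates 1, 2 and 3. In the intensity table, whose headings are the sample titles, Sri was high in the 6 arrays that the labels call SRI-tg10. In column order, the matched arrays ran through control replicates 1 to 6 and then SRI-tg10 replicates 1 to 6, whereas the headings alternate between the groups. No source used here says how the columns of the value table came to be headed.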
